A study of Danio rerio with 2 samples.

Results

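Arterial endothelial cells of the zebrafish trunk were taken as cluster 3 of the 15 clusters into which the authors had divided their single-cell data, because aqp1a.1, flt1, ndnf and cxcr4a mark that cluster. Cluster 3 held 1695 of the 12352 cells in the authors' table, 913 of 6227 in the wildtype library and 782 of 6125 in the miR-223 mutant library. Trunks of embryos at 27 hours post fertilization (hpf) were dissociated, mCherry-positive cells were sorted, and transcript 3′ ends were sequenced cell by cell on a droplet platform. The study asked how N-glycan genes and miR-223, a blood microRNA, bear on the conversion of endothelium into blood stem cells.

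Both groups carried Tg(5xUAS:eGFP)nkuasgfp1a and Tg(kdrl:hras-mCherry)s896. The wildtype fish also carried Tg(miR-223:KalTA4)ya362, and the mutant fish carried Tg(miR-223:KalTA4)ya363 together with miR-223(ya303). The mCherry reporter is driven by the promoter of kdrl, an endothelial VEGF receptor gene, and the eGFP reporter answers to the KalTA4 activator, so both groups were transgenic. There was 1 library per group, and the number of embryos behind each library was not given in the sources used here. No test of genotype was therefore possible, no p-value is given, and genotype cannot be told apart from clutch, sort or library preparation. The mir223 gene was not analysed here, so the genotypes rest on the labels.

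Arterial endothelium lines the dorsal aorta and the vessels that sprout from it. Its identity is set early by VEGF signalling acting through Notch receptors and their ligands, which raise arterial genes such as efnb2a and hold back the venous programme. In the zebrafish trunk the ventral wall of the same aorta gives rise to the first blood stem cells, through a hemogenic state marked by runx1 and gata2b.

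The deposited mean values of cluster 3 were multiplied back to sums of UMIs (unique molecular identifiers, 1 per captured transcript), which gave 6316989 UMIs in the wildtype column and 5326554 in the mutant column. That is a mean of 6919 UMIs per wildtype cell and 6811 per mutant cell, so the arterial cells were read to nearly the same depth in both libraries. Levels below are CPM, the UMIs of a gene scaled to a common total of all UMIs of its cluster and library. Ratios are log2 of mutant over wildtype CPM with a pseudocount of 1 CPM, and intervals are exact 95% intervals that cover counting error only. A gene was taken as changed when its ratio passed 2-fold, among the 5523 genes whose level averaged 10 CPM or more over both columns of cluster 3.

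The markers that name the cluster are given first. The water channel gene aqp1a.1 (ENSDARG00000023713) stood at 11923 CPM in wildtype cluster 3 and 11143 CPM in mutant cluster 3, against 1096 and 649.5 CPM in the pooled endothelial clusters 0, 1, 2, 5 and 6. The secreted factor gene ndnf (ENSDARG00000062936) stood at 630.0 and 674 CPM, against 36.4 and 35.3 CPM. The VEGF receptor gene flt1 (ENSDARG00000019371) stood at 472 and 336 CPM, against 32.9 and 19.3 CPM. The chemokine receptor gene cxcr4a (ENSDARG00000057633) stood at 274 and 179 CPM, against 11.6 and 7.10 CPM. All 4 markers were thus more than 10-fold higher in cluster 3 than in the other endothelial cells in both libraries. These genes were used to name the cluster and were among the values it was built from, so their levels describe it and are no test of its label.

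Further arterial genes followed the same pattern. Of the 5448 genes that averaged 10 CPM or more over cluster 3 and the pool, 347 (6.37%) were at least 2-fold higher in cluster 3 in both libraries and 364 (6.68%) at least 2-fold lower. Because the clusters were built from these same values, these counts describe cluster 3 and are no test of it. Of 25 arterial identity genes, 23 were in the table and 16 averaged 10 CPM or more over both columns of cluster 3 alone. That filter favours genes high in cluster 3, so the count that follows describes the list and is no test. At least 2-fold above the pool in both libraries were 15 of the 16, beside 435 of all 5523 genes under that filter. The exception was hapln1b, which encodes a hyaluronan-binding matrix protein and stood at 13.9 and 36.8 CPM in cluster 3 against 56.5 and 158 CPM in the pool.

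The Notch ligand gene dll4 reached 508 CPM in cluster 3 of the wildtype and 376 CPM in that of the mutant library, which was 4.99-fold and 6.12-fold above the pool. The ephrin gene efnb2a, whose product marks arterial cells and faces Eph receptors on veins, stood at 179 CPM in both libraries, 8.43-fold and 8.17-fold above the pool. The Notch receptor gene notch3 stood at 84.9 and 90.3 CPM, 7.79-fold and 6.47-fold above. These genes and the Notch target hey2, an arterial transcriptional repressor gene, were not spread evenly over the remaining clusters. The level of hey2 was 246 CPM in wildtype cluster 3 and 299 CPM in wildtype cluster 6, but 214 and 115 CPM in the corresponding mutant clusters. Cluster 6 was therefore the highest in hey2 in the wildtype library and cluster 3 in the mutant library.

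Venous genes were low in cluster 3 only in part. Of 16 venous identity genes, 8 averaged 10 CPM or more in cluster 3 alone. At least 2-fold below the pool in both libraries were 4 of these 8, beside 246 of all 5523 genes under that filter. The filter leaves out venous genes that were very low in cluster 3, such as nr2f2 below, so the count describes only the genes kept. The hyaluronan receptor gene lyve1b stood at 64.4 and 62.9 CPM, which was 11.8-fold and 10.4-fold below the pool. The scavenger receptor gene stab2 stood at 194 and 277 CPM (4.52-fold and 4.26-fold below) and the endocytic adaptor gene dab2 at 466 and 662 CPM (3.80-fold and 2.85-fold below). In both libraries cluster 3 was the lowest of the 6 endothelial clusters for lyve1b, stab2 and dab2. The venous factor gene nr2f2 stood at 1.42 and 3.19 CPM, on 9 and 17 UMIs. Not every listed gene was lowest in cluster 3. In both libraries stab1, flt4, ephb4b and il6st were higher there than in cluster 1. The level of flt4 was 166 and 186 CPM in cluster 3 and 94.9 and 89.2 CPM in cluster 1. One listed gene was at least 2-fold above the pool in both libraries. The water channel gene aqp8a.1 stood at 4198 and 4860.2 CPM in cluster 3, and only cluster 6 held more (5374 and 5764 CPM). High aqp8a.1 was thus shared by clusters 3 and 6 in both libraries, and high hey2 in the wildtype library. In the mutant library cluster 6 came second to cluster 3 in hey2. The arterial list gene hey1 stood at 24.9 and 15.4 CPM in cluster 3 and at 27.8 and 16.1 CPM in cluster 6.

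**Figure D1:**
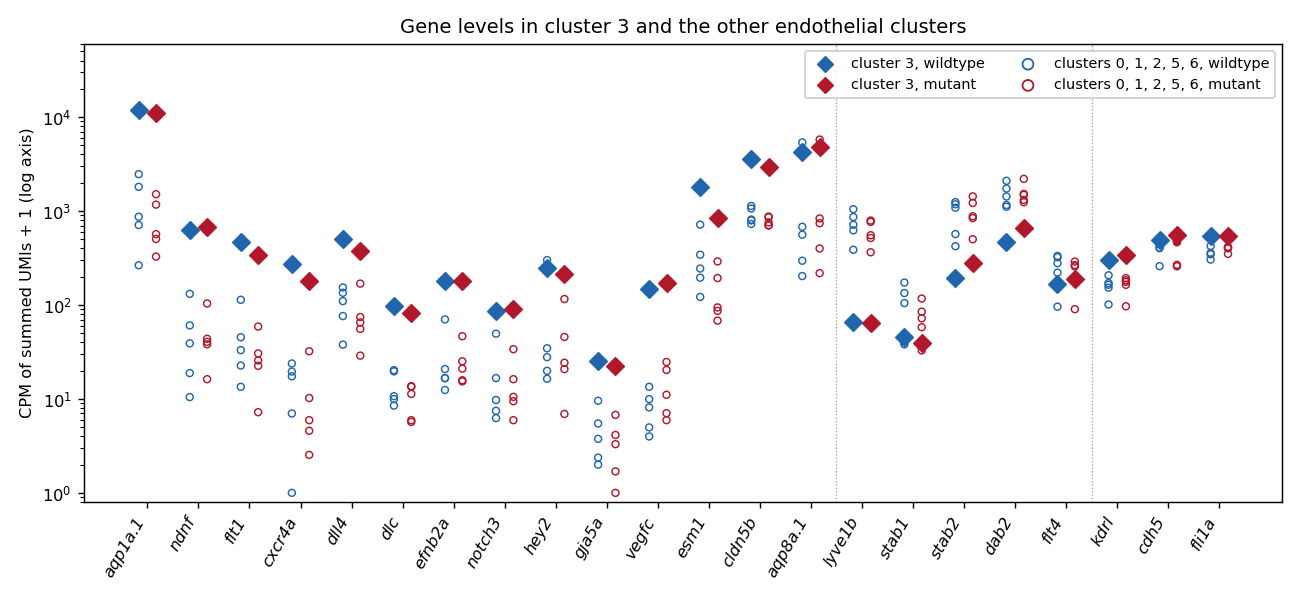
Level of 22 genes on a log axis (CPM of summed UMIs + 1) in cluster 3 (diamonds) and in each of clusters 0, 1, 2, 5 and 6 (open circles), blue for the wildtype and red for the mutant library; dotted lines part arterial list genes with aqp8a.1, other venous genes, and genes of all endothelium. Cluster 3 lies above all other circles of its library for aqp1a.1, ndnf, flt1 and cxcr4a and below them for lyve1b, and its hey2 diamond meets the cluster 6 circle of the wildtype library.

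The 15 genes that stood highest over the other endothelial clusters (average of 50 CPM or more, ranked by the smaller of the 2 libraries' ratios) included 5 from the arterial list, cxcr4a, ndnf, flt1, vegfc and aqp1a.1. The lymphatic growth factor gene vegfc stood at 148 and 171 CPM, 19.1-fold and 13.2-fold over the pool. The tetraspanin gene cd81b stood at 173 and 107 CPM (18.6-fold and 23.1-fold) and the adrenergic receptor gene adrb3a at 69.7 and 118 CPM (18.3-fold and 24.1-fold). A second tetraspanin gene, tspan18a, stood at 237 and 198 CPM, and zic2b, which encodes a zinc finger transcription factor, at 125 and 109 CPM. The others were pcolce2b, mpped2a, cavin1b, hapln3, zgc:112332 and the unnamed CABZ01030107.1. Cavin1b is a coat protein gene of caveolae, the membrane pits of endothelium, and hapln3 belongs to the same link protein family as hapln1b. Of the 347 genes above the pool, 60 were also at least 2-fold above the highest single other endothelial cluster in both libraries.

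Genes of the cell cycle were mostly higher in cluster 3 than in the pool, of which cluster 2 made up 1925 of 4093 wildtype cells. Of 36 cell cycle genes that averaged 10 CPM or more in cluster 3 alone, 28 were at least 2-fold above the pool in both libraries. Under that filter, which favours genes high in cluster 3, 435 of all 5523 genes were. The replication clamp gene pcna stood at 476 and 602 CPM, 2.68-fold and 3.28-fold over the pool, and the proliferation marker mki67 at 43.1 and 65.0 CPM, 2.56-fold and 2.89-fold. Against single clusters this did not hold in the wildtype library, where cluster 3 was the highest endothelial cluster for 2 of the 36 genes. Cluster 0 was above it for 20 of them and cluster 6 for 16, with pcna at 488 CPM in cluster 6 and mki67 at 78.6 CPM in cluster 0. In the mutant library cluster 3 was the highest for 29 of the 36, with cluster 0 above it for 2 and cluster 6 for 3. Cluster 0 held 283 wildtype but 1846 mutant cells, and its mki67 level was lower in the mutant library. The clusters set beside cluster 3 thus differed between the libraries. How often cluster 3 was the highest among all 5523 genes was not counted, so these counts have no background. Whether mutant arterial cells cycled more was not tested.

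Markers of other cell types were measured in cluster 3 to show what else its cells or droplets held. All 18 erythroid genes were detected, and they summed to 10660 and 10251 CPM in cluster 3, within the ranges of the other endothelial clusters (6726 to 30264 and 8048 to 21059 CPM). In the erythroid cluster 4 they summed to 432790 and 358710 CPM. Of 14 myeloid genes 12 were detected in each library, summing to 503 and 476 CPM. Most of that sum was srgn (405 and 324 CPM), followed by lyz (66.0 and 119 CPM). In wildtype ptprc was at 0, in the mutant library mpeg1.1 was at 0, and marco was at 0 in both. Mesenchymal and mural genes summed to 901 and 808 CPM with pdgfra, pdgfrb and acta2 at 0 in both. Most of that sum was the calponin gene cnn2 (689 and 618 CPM), followed by myl9a (82.8 and 45.1 CPM) and foxc1a (68.9 and 76.6 CPM). Muscle genes summed to 95.9 and 103 CPM. Neural genes summed to 462 and 498 CPM, above the other endothelial clusters (144 to 324 and 118 to 295 CPM), and epidermal genes to 2752 and 2970 CPM, of which krt8 made up 2718 and 2912 CPM. The neural sum came mostly from the tubulin gene tubb5 (298 and 364 CPM), followed by nova2 (143 and 127 CPM). The genes sox2, sox19a and ncam1a were at 0 in both libraries. Notochord and cartilage genes summed to 32.3 and 31.4 CPM. The part of these transcripts in the results below was not tested.

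The share of arterial cells was compared next. Cluster 3 made up 18.2% of the cells in endothelial clusters 0, 1, 2, 3, 5 and 6 of the wildtype library (913 of 5006, exact binomial 95% interval 17.2 to 19.3%) and 18.9% of those of the mutant library (782 of 4128, 17.8 to 20.2%). These differed by 0.706 percentage points (Newcombe interval -0.893 to 2.32), which is within counting error. Over all cells of the table the shares were 14.7% and 12.8%, a difference of -1.89 points (-3.11 to -0.681). That denominator includes erythroid cluster 4, with 542 wildtype and 1117 mutant cells. By the authors' clusters, arterial cells were thus a like share of the endothelium in both libraries, which did not hold for the gated cells below. Clusters 0 and 2 each came almost wholly from 1 library (283 and 1846 cells in cluster 0, 1925 and 31 in cluster 2).

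Arterial cells were also picked one by one from the raw matrices, by a UMI of the endothelial cadherin gene cdh5 and of at least 3 of the 4 markers. With each cell thinned to 3000 UMIs, such cells made up 18.7% of wildtype cells with cdh5 (574 of 3064, 17.4 to 20.2%). In the mutant library they made up 13.7% (417 of 3038, 12.5 to 15%), which was lower by -5.01 points (-6.85 to -3.16) when written as mutant minus wildtype. Unthinned, the shares were 25.3% (1193 of 4718) and 19.99% (939 of 4697). The gate counts UMIs of flt1 and cxcr4a, which were lower per cell in the mutant library, so its share depends on its own markers. What those levels contributed to the share was not tested. The marker aqp1a.1 also had a UMI in 71.6% of thinned wildtype and 63.0% of thinned mutant erythroid cells. A UMI of aqp1a.1 alone was thus not particular to arterial cells. These erythroid cells were chosen to have no UMI of cdh5, so the gate cannot hold them. How far aqp1a.1 sets arterial cells apart from other cells with cdh5 was not measured. With at least 2 of the 4 markers, the thinned shares were 31.4% in wildtype and 27.3% in mutant cells (-4.11 points, -6.39 to -1.83). Unthinned, they were 39.7 and 34.1% (-5.66 points, -7.60 to -3.71). The cluster share and the gate share have different denominators.

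The mutant library was then compared with the wildtype library within cluster 3. Of 5523 genes, 46 (0.833%) were at least 2-fold higher and 65 (1.18%) at least 2-fold lower in the mutant library, and the median log2 ratio of all of them was 0.00. Both percentages are the background for each count of list members past 2-fold given below, including the counts of none. Most arterial genes stayed within 2-fold. Among the endothelial and pathway genes past 2-fold were esm1, the apelin ligand gene apln, the claudin gene cldn5a, the endothelial gene ecscr and the Notch targets her15.1 and her4.1, which fell, and sele, aplnra, sqstm1 and hapln1b, which rose. The lowest ratio among abundant genes was that of histh1l, a linker histone gene, which fell in all 6 endothelial clusters.

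**Figure D2:**
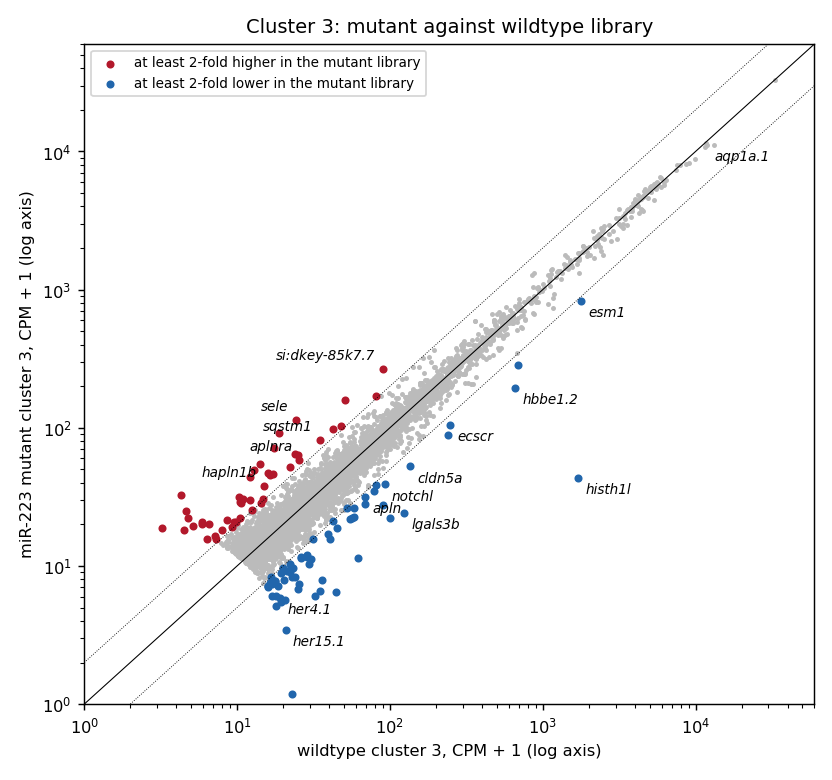
Each point is 1 of the 5523 genes of cluster 3, with its wildtype level across and its mutant level upwards (CPM + 1, log axes); the solid line marks equal levels and the dotted lines 2-fold. The 46 genes at least 2-fold higher (red) and the 65 at least 2-fold lower (blue) are mostly low in level, and esm1 and histh1l stand out among the abundant genes.

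Among the 16 arterial genes, 1 rose and 1 fell past 2-fold, and their median log2 ratio was -0.19 beside 0.00 for all genes. The gene that fell was esm1 (ENSDARG00000104370), which encodes a secreted proteoglycan of sprouting endothelium. It dropped from 1791 to 833 CPM, or from 12.4 to 5.67 UMIs per cell, a log2 ratio of -1.10 (-1.16 to -1.05). The gene that rose was hapln1b, from 13.9 to 36.8 CPM (log2 1.34, 1.03 to 1.78), and it is the listed gene that was lower in cluster 3 than in the pool. The remaining 14 lay between log2 ratios of -0.66 (hey1, 24.9 and 15.4 CPM, a Notch target) and 0.21 (vegfc).

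The 4 markers did not move together. The values were 11923 and 11143 CPM for aqp1a.1 (log2 -0.10, -0.11 to -0.08) and 630.0 and 674 CPM for ndnf (log2 0.10, 0.03 to 0.16). For flt1 they were 472 and 336 CPM (log2 -0.49, -0.57 to -0.40) and for cxcr4a 274 and 179 CPM (log2 -0.61, -0.73 to -0.50). Neither flt1 nor cxcr4a reached 2-fold. The tight junction gene cldn5b stood at 3538 and 2932 CPM (log2 -0.27), and the connexin gene gja5a at 24.5 and 21.4 CPM (log2 -0.19).

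Of 24 Notch pathway genes that passed the filter, 2 fell and none rose past 2-fold, with a median log2 ratio of -0.14. Both that fell are Notch targets of the hairy-related family. The gene her15.1 stood at 19.8 CPM (125 UMIs) and 2.44 CPM (13 UMIs) (log2 -2.60, -3.97 to -2.19). The gene her4.1 stood at 18.2 CPM (115 UMIs) and 4.88 CPM (26 UMIs; log2 -1.71, -2.57 to -1.28). These families hold near-identical copies in the zebrafish genome, between which 3′ reads can be split, so the 2 values are uncertain as values of single genes, and her4.1 is also on the list of neural markers.

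Other Notch genes lay within 2-fold. Among ligands, dll4 stood at 508 and 376 CPM (log2 -0.43, -0.52 to -0.35), dlc at 97.7 and 80.9 CPM (log2 -0.27) and dld at 14.1 and 9.01 CPM (log2 -0.59). Among receptors, notch3 stood at 84.9 and 90.3 CPM, notch1a at 64.4 and 75.3 CPM (log2 0.22) and notch1b at 12.98 and 11.6 CPM (log2 -0.15). The interval of each of these receptor ratios reached or came near 0. The highest ratio of the list was that of the receptor gene notch2, at 7.60 and 12.6 CPM on 48 and 67 UMIs (log2 0.66, 0.17 to 1.29). The fringe gene mfng, whose product modifies Notch receptors with sugars, stood at 70.4 and 36.4 CPM (log2 -0.93, -1.20 to -0.71), while its relative lfng stood at 47.5 and 51.1 CPM (log2 0.10). The target genes her12 (48.8 and 26.8 CPM, log2 -0.84) and hey2 (log2 -0.20) were lower, and nrarpa, a target that feeds back on Notch, was at 31.5 and 37.9 CPM (log2 0.26). Outside the list, notchl fell from 91.3 to 37.9 CPM (log2 -1.25, -1.51 to -1.03) and was among the 12 lowest ratios of the cluster.

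Chemokine and apelin genes held 1 member that rose and 2 that fell past 2-fold among 9 that passed the filter. The ligand gene apln (ENSDARG00000053279), which is made by sprouting endothelium, fell from 67.8 to 30.6 CPM (log2 -1.12, -1.42 to -0.88). Its receptor genes differed from each other, since aplnra rose from 24.5 to 57.3 CPM (log2 1.19, 0.94 to 1.51) and aplnrb stood at 655 and 761 CPM (log2 0.22, 0.15 to 0.28). The ligand stood at 3.66 and 0.910 CPM in the pool. The receptor aplnra was 6.60-fold and 4.32-fold lower in cluster 3 than in the pool, whereas aplnrb was 2.36-fold and 3.84-fold higher.

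The chemokine scavenger gene ackr3b fell from 18.5 to 7.88 CPM (117 and 42 UMIs; log2 -1.14, -1.78 to -0.71). The second Cxcl12 receptor gene, cxcr4b, stood at 53.7 and 27.4 CPM (log2 -0.94, -1.26 to -0.69), just inside 2-fold. The ligand genes cxcl12a (142 and 162 CPM, log2 0.20) and cxcl12b (24.7 and 25.2 CPM, log2 0.03) were level. The Cxcl12 receptors and the scavenger were thus lower in the mutant library and the ligands were not. With a pseudocount of 10 CPM the log2 ratios of apln (-0.94), aplnra (0.96), ackr3b (-0.67), her4.1 (-0.92) and hapln1b (0.97) lay inside 2-fold. In the list of Tie, angiopoietin and tip cell genes, 2 of 12 fell, esm1 and apln, and the median log2 ratio was 0.02. The platelet-derived growth factor gene pdgfba (29.4 and 29.1 CPM) and the protease gene mmp14b (146 and 157 CPM) of that list differed little.

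Of 15 junction and connexin genes, 1 fell past 2-fold, with a median log2 ratio of -0.15. The claudin gene cldn5a fell from 135 to 51.6 CPM (log2 -1.36, -1.58 to -1.18), while its paralog cldn5b stood at the values given above. The adhesion gene pecam1 stood at 149.6 and 91.2 CPM (log2 -0.71, -0.87 to -0.55) and cdh5 at 486 and 558 CPM (log2 0.20, 0.13 to 0.27). The connexin gene cx43.4 was the highest of the list, at 10.4 and 18.02 CPM (log2 0.73, 0.32 to 1.26).

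Genes of all endothelium held 1 member of 20 past 2-fold, with a median log2 ratio of -0.03. The gene ecscr (ENSDARG00000087457), which encodes a surface protein of endothelial cells, fell from 248 to 104 CPM (log2 -1.24, -1.39 to -1.11). The VEGF receptor gene kdrl stood at 302 and 336 CPM (log2 0.15, 0.06 to 0.25), the ETS factor gene fli1a at 539.8 and 547 CPM, and clec14a at 1229 and 1231 CPM. Among 19 endothelial transcription factor genes none passed 2-fold. The lowest was the flow-responsive gene klf2a, at 92.9 and 56.3 CPM (log2 -0.71, -0.93 to -0.52), and the highest foxo1a, at 36.3 and 60.6 CPM (log2 0.73, 0.49 to 0.99).

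**Figure D3:**
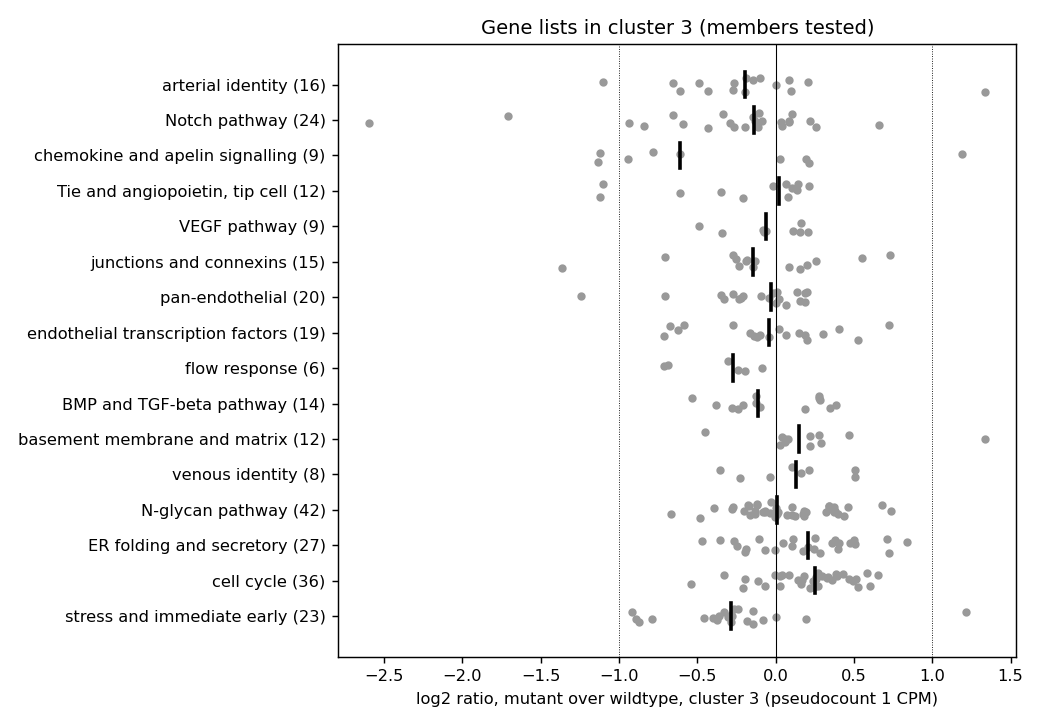
Log2 ratio of mutant over wildtype in cluster 3 for each tested member (grey points) of 16 gene lists, with the median of each list as a black bar, the number of members in brackets and dotted lines at 2-fold; vertical scatter within a row has no meaning. The bars lie between -0.61 for chemokine and apelin signalling and 0.25 for the cell cycle, and single genes rather than whole lists pass the dotted lines.

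The VEGF pathway list had 9 genes that passed the filter, none past 2-fold, with a median log2 ratio of -0.06. The feedback phosphatase gene dusp5 stood at 1186 and 933 CPM (log2 -0.34), spry4 at 99.7 and 95.8 CPM and flt4 at 166 and 186 CPM. Of 14 genes of the BMP and TGF-beta pathway none passed 2-fold (median -0.11), the lowest being smad2 (16.5 and 11.1 CPM, log2 -0.53). Of 11 guidance genes none passed either, and the highest was slit3, a secreted repellent gene, at 21.7 and 35.3 CPM (log2 0.68, 0.38 to 1.03). All 6 genes of the flow response list were lower in the mutant library, beside 49.3% of all 5523 genes, none past 2-fold, with a median log2 ratio of -0.27. Besides klf2a, they included klf2b at 28.7 and 17.5 CPM (log2 -0.68) and the lipid receptor gene s1pr1 at 147 and 128 CPM (log2 -0.20). Its members junba and egr1 are also on the list of stress and immediate early genes below, so the lists are not independent.

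In the basement membrane and matrix list 1 of 12 passed 2-fold, which was hapln1b, and the median log2 ratio was 0.15. The collagen genes col4a1 and col4a2, whose products are paired chains of the basement membrane, stood at 19.3 and 19.9 CPM and at 36.6 and 26.5 CPM. Of 8 venous genes none passed 2-fold, with a median log2 ratio of 0.13. The 2 highest were stab2 (194 and 277 CPM, log2 0.51, 0.40 to 0.62) and dab2 (466 and 662 CPM, log2 0.51, 0.44 to 0.58), and both stayed below every other endothelial cluster of their library.

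Of the hemogenic and blood stem cell genes, runx1, gata2b and gfi1aa were low. The hemogenic factor gene runx1 had 4 UMIs in wildtype cluster 3 and 0 in the mutant, where 3 counts would be 0.563 CPM, so no fold is given. The factor genes gata2b (8.86 and 6.95 CPM, on 56 and 37 UMIs) and gfi1aa (5.07 and 7.88 CPM, on 32 and 42 UMIs) lay under the filter. Others that endothelium also uses were well detected, such as the factor genes lmo2 at 418 and 516 CPM and tal1 at 63.5 and 84.3 CPM. Of 22 genes on that list 7 passed the filter and none passed 2-fold, with a median log2 ratio of -0.02. The highest was meis1b, a homeobox factor gene also used outside blood, at 57.1 and 82.6 CPM (log2 0.52, 0.33 to 0.74). In the single cells picked by the gate, runx1 had a UMI in 0.0902% of thinned wildtype cells (0.00228 to 0.501%) and in 0 of 891 mutant cells, where 3 counts would be a share of 0.337% and the exact interval reaches 0.413%. Unthinned, the shares were 0.335 and 0.213%.

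The N-glycan pathway, which the study concerned, had 42 genes that passed the filter. None was past 2-fold, beside 0.833% higher and 1.18% lower among all 5523 genes, so a count of none is near the background. The median log2 ratio was 0.01. Alg2, an enzyme of lipid-linked glycan assembly, stood at 9.66 and 9.01 CPM, under the filter, so it is not among the 42. The cargo lectin gene lman2lb stood at 34.0 and 32.5 CPM (log2 -0.07, -0.36 to 0.23). The glucosidase subunit gene ganab was the lowest at 23.9 and 14.6 CPM (log2 -0.67), and the mannosidase gene man1a1 the highest at 26.9 and 45.4 CPM (log2 0.73, 0.47 to 1.05). For st3gal2 no value is reported. Of 27 genes of endoplasmic reticulum folding and secretion none passed 2-fold, with a median log2 ratio of 0.21, the highest being the disulfide isomerase gene pdia6 at 126 and 227 CPM (log2 0.84, 0.72 to 0.98).

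Cell cycle genes were mostly somewhat higher in the mutant library. Of 36, 29 were higher by any amount, beside 50.7% of all 5523 genes, none passed 2-fold in either direction, and the median log2 ratio was 0.25. The level of pcna was 476 and 602 CPM (log2 0.34, 0.26 to 0.41) and that of mki67 43.1 and 65.0 CPM (log2 0.58, 0.36 to 0.83). The nucleotide synthesis gene tyms was the highest, at 37.0 and 58.8 CPM (log2 0.65, 0.42 to 0.92), and rrm2 the lowest, at 84.4 and 57.8 CPM (log2 -0.54, -0.75 to -0.34). The table also lists a feature rrm2.1 with a log2 ratio of 0.89, so rrm2 is uncertain as the value of a single gene.

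Stress and immediate early genes leaned the other way. Of 23, 20 were lower, beside 49.3% of all 5523 genes, with a median log2 ratio of -0.28, and 1 passed 2-fold by rising, the autophagy receptor gene sqstm1 from 33.9 to 80.0 CPM (log2 1.22, 0.999 to 1.48). The heat shock gene hsp70.3 was the lowest, at 163 and 85.8 CPM (log2 -0.92, -1.09 to -0.77). Dissociation of tissue is known to raise genes of this list, and its part in the arterial values was not tested.

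The reporters bear on the sort. The level of mCherry-Hras was 155 CPM in wildtype cluster 3 and 274 CPM in its mutant counterpart (log2 0.82, 0.71 to 0.94), and the ratio was 0.85, 0.72 and 0.69 in clusters 1, 5 and 6. The transcript of the sorting reporter was thus higher in the mutant library in each of these 4 clusters, while kdrl, whose promoter drives it, had a log2 ratio of 0.15. Reporter eGFP stood at 171 and 157 CPM, 2.92-fold and 2.93-fold over the pool, and GAL4 had 8 and 1 UMIs. The activator transgene that drives eGFP differed between the groups, as given above. What the reporter difference contributed to other values was not tested.

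The largest ratios of cluster 3 among genes with at least 50 CPM lay mostly outside the arterial list. Of that list, only esm1 was among the 12 lowest, and none was among the 12 highest. The linker histone gene histh1l dropped from 1704 to 42.2 CPM (log2 -5.30, -5.53 to -5.14), and its log2 ratio was -3.43, -2.95 and -6.04 in clusters 1, 5 and 6. The galectin gene lgals3b dropped from 123 to 23.3 CPM (log2 -2.35) and the repair factor gene rad23b from 99.3 to 21.2 CPM (log2 -2.17). In clusters 1, 5 and 6 the log2 ratios of lgals3b were nearly the same (-2.34, -2.40 and -2.32), and those of rad23b ranged from -2.68 to -1.66. The globin copies hbbe1.2 (659 and 192 CPM) and hbae1.1.1 (684 and 284 CPM) fell as well, whereas the near-identical hbbe1.1 stood at 1445 and 1726 CPM, so these 3 are uncertain as values of single genes. The adaptor gene grb2b, the ribonuclease gene rnaset2 and the annexin gene anxa4 complete the 12 lowest with cldn5a, notchl, ecscr and esm1.

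On the other side, sele, which encodes the leukocyte adhesion molecule E-selectin, rose from 23.3 to 114 CPM (log2 2.24, 2.02 to 2.56). It was lower in cluster 3 than in the pool in both libraries (4.79-fold and 2.09-fold). The unnamed genes si:ch211-66k16.27 (17.9 and 91.4 CPM), si:ch211-226l4.6 (49.6 and 158 CPM) and si:dkey-85k7.7 (88.6 and 266 CPM) rose, as did hnrnpl, rpl26 and fblim1. With a pseudocount of 10 CPM the log2 ratios of rpl26 (0.97) and fblim1 (0.99) lay inside 2-fold. The genes rab11bb, h2afy2, lta4h and metrnla completed the 12 highest with log2 ratios of 0.90 to 0.96, inside 2-fold.

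The same ratios were set beside those of clusters 1, 5 and 6, the endothelial clusters with cells of both libraries, to see where else the same differences were measured. Clusters 0 and 2 were left out because nearly all of their cells came from 1 library. The drop of esm1 was not confined to cluster 3, with log2 ratios of -1.10 in cluster 3 and -1.17, -0.84 and -1.30 in clusters 1, 5 and 6. That of ecscr was -1.24, beside -1.39, -0.88 and -1.38. The rise of aplnra was 1.19, beside 1.15, 0.72 and 0.84, and that of sqstm1 1.22, beside 1.12, 1.15 and 1.5. For hapln1b the rise was 1.34, beside 1.27, 1.42 and 1.61. The ratio of each of these genes had the same sign in all 4 clusters.

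Other genes differed among clusters. The ratio of hey2 was -0.20 in cluster 3 but 0.40, -0.20 and -1.38 in clusters 1, 5 and 6, and that of cxcr4a was -0.61 beside 0.43, -1.93 and -0.94. Dll4 had -0.43 beside -0.39, -0.98 and -1.04. The ratio of pcna was 0.34 in cluster 3 and 0.17, -0.28 and -0.77 in clusters 1, 5 and 6, and that of mki67 was 0.58 beside 0.14, -0.14 and 0.07, and both ratios were highest in cluster 3. For klf2a it was -0.71 beside 0.67, -0.18 and -0.35. None of these differences between clusters was tested, since each rests on 1 library per group.

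**Figure D4:**
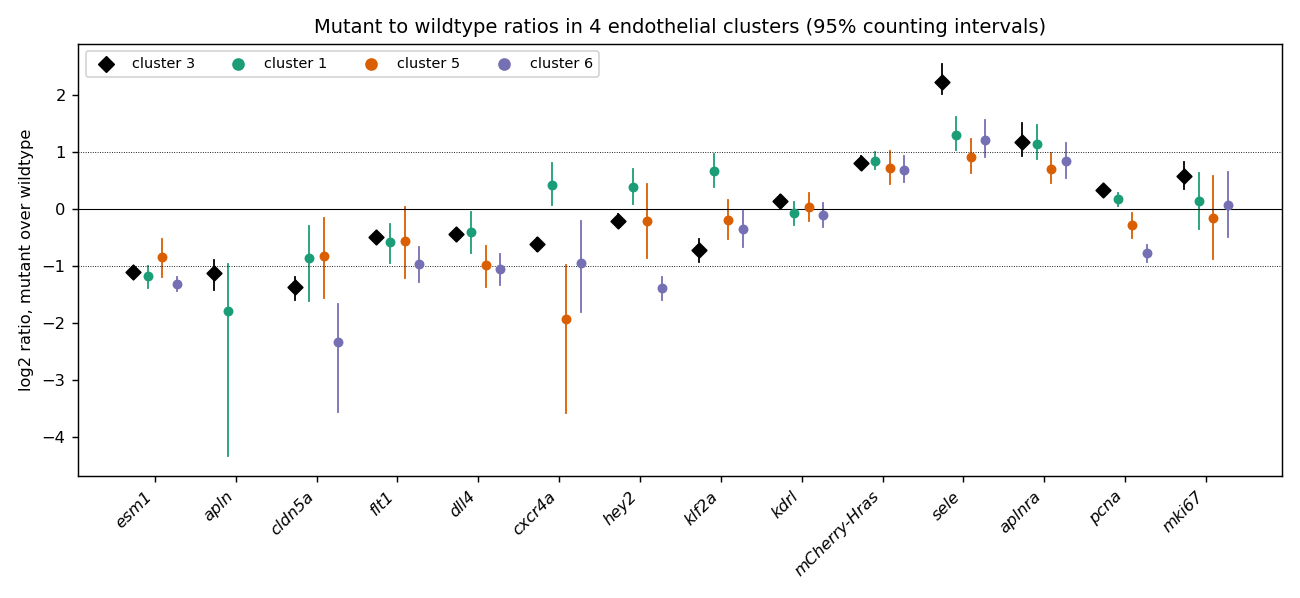
Log2 ratio of mutant over wildtype for 14 genes in cluster 3 (black diamonds) and clusters 1, 5 and 6 (green, orange and purple circles), with 95% counting intervals; a cluster with fewer than 4 UMIs of a gene in either library is left out. The esm1 points lie together near -1, those of mCherry-Hras between 0.69 and 0.85, and those of hey2 spread from -1.38 to 0.40.

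Against the pool of clusters 1, 5 and 6, 5 of 4396 genes (0.114%) had a cluster 3 ratio at least 2-fold above that of the pool and 112 (2.55%) at least 2-fold below. The make-up of that pool differed between the libraries, because cluster 1 held 76.6% of its wildtype and 39.5% of its mutant cells, cluster 5 13.8% and 28.7%, and cluster 6 9.55% and 31.8%. With the 3 clusters weighted equally, 8 genes were above and 9 below among 4591, and the median departure moved from -0.22 to -0.03. On that scale the 12 largest departures each way (average of 50 CPM or more) included rrm2 (1.54, the largest), sele (1.09) and aplnrb (0.73) upwards. Downwards they included histh1l (-1.16), hsp70.3 (-0.86) and klf2a (-0.76). Against cluster 6 alone the departure of histh1l was 0.74, so its sign turned. The pooled counts therefore move with the mixture of clusters.

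The single cells picked by the gate gave the share of arterial cells with a UMI of each gene. The gate held 1193 wildtype and 939 mutant cells with medians of 8865 and 8484 UMIs, and 1109 and 891 of them were deep enough to be thinned to 3000 UMIs, leaving out 84 and 48. The background was read in erythroid cells of the same library (1057 and 2193 thinned cells). Such cells had medians of 30291.5 and 27405 UMIs before thinning. At the medians, thinning thus kept a smaller part of an erythroid cell's UMIs than of a gated cell's. The erythroid share may therefore be too low as a background for gated cells. There were 98 cell barcodes in both libraries, 2 of them among gated cells in both.

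A UMI of esm1 was found in 79.4% of wildtype cells (exact 95% interval 76.9 to 81.8%) and 68.7% of mutant cells (65.5 to 71.7%), with a background of 3.60 and 2.23%. For apln the shares were 13.2% (11.2 to 15.3%) and 6.96% (5.38 to 8.83%), with a background of 0.662 and 0.0912%. For cldn5a they were 18.4% (16.2 to 20.8%) and 8.08% (6.38 to 10.1%), with a background of 2.27 and 1.23%. Unthinned, the shares were 88.2 and 81.9% for esm1, 24.2 and 14.2% for apln, and 29.8 and 17.7% for cldn5a. All 3 genes were found in a smaller share of mutant cells, beyond counting error.

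The share for dll4 was 64.6% (61.7 to 67.4%) and 55.7% (52.3 to 59.0%), with a background of 0.473 and 0.365%, and unthinned 87.3 and 82.0%. For efnb2a it was 35.1% (32.3 to 37.97%) and 35.9% (32.8 to 39.2%), and for hey2 42.4% (39.5 to 45.4%) and 38.9% (35.7 to 42.2%), each with a background of at most 0.502%. Unthinned, efnb2a was found in 60.7 and 64.4% and hey2 in 66.8 and 63.7% of cells. The share of cells with dll4 was thus lower in the mutant library beyond counting error, and those with efnb2a and hey2 were not apart at this depth. Vegfc was found in 24.2% (21.7 to 26.8%) and 28.8% (25.9 to 31.9%), unthinned in 45.3 and 51.4%, with a background of 0.0946% in wildtype and of 0 of 2193 mutant erythroid cells, which allows up to 0.137%. Of the gate's own genes, flt1 was found in 67.3 and 58.6% and cxcr4a in 35.6 and 28.6% of thinned cells, which is no independent value because both helped to choose the cells.

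For pcna (52.4 and 58.8%) and mki67 (13.9 and 19.0%) the erythroid cells had higher shares (77.2 and 78.1%, and 27.1 and 27.3%), so they give no background for these genes and no difference is read from the shares. The same holds for hbbe1.1, a gene of erythroid cells, at 90.8 and 97.0% of gated cells against 99.5 and 99.9%. For histh1l the gated cells had 88.5 and 9.88% and the erythroid cells 86.9 and 8.85%, so the shares differed between the libraries by a similar amount in both kinds of cell.

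**Figure D5:**
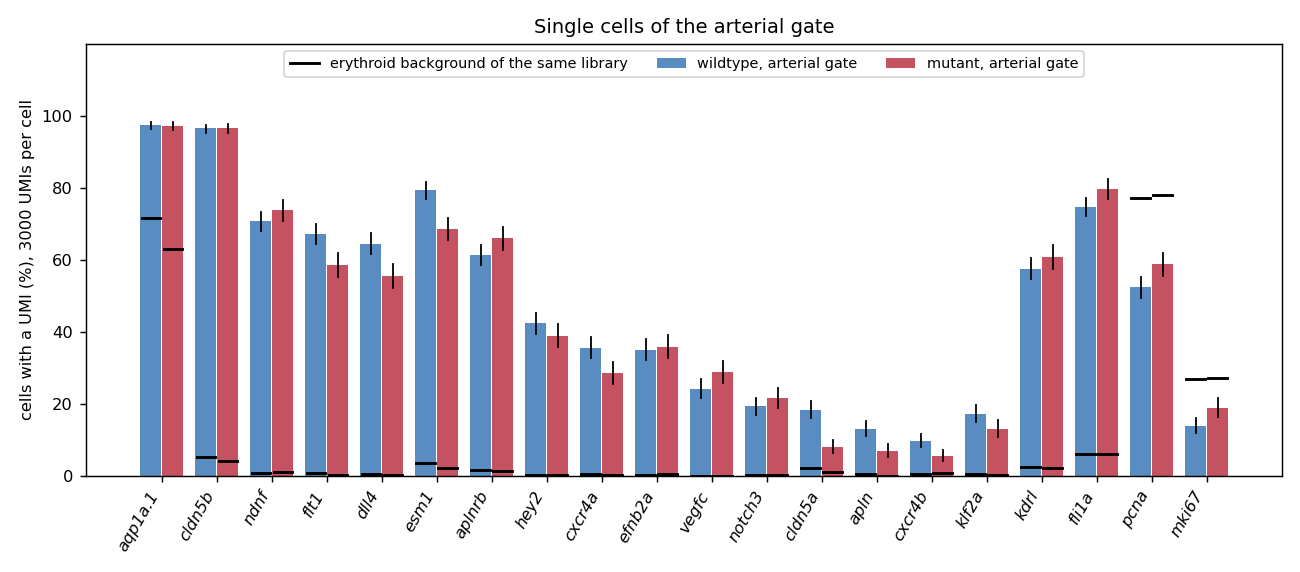
Share of gated arterial cells with at least 1 UMI of each of 20 genes after thinning to 3000 UMIs (bars, blue for 1109 wildtype and red for 891 mutant cells, black lines for exact 95% intervals of counting error) and the share in erythroid cells of the same library (short black bars). The mutant bars are lower for esm1, dll4, cldn5a and apln and level for efnb2a, and the erythroid bars exceed the arterial ones for pcna and mki67.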

How the data were processed

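The authors deposited 2 kinds of values. In the table that the authors deposited for the series, the signal is a cluster's average number of UMIs per cell, calculated for 15 clusters in each library (30 columns, 17822 genes) and not scaled for depth. The matrices hold raw counts of UMIs per gene and cell barcode, and per the file headers they come from software version 3.0.2. Cell Ranger, Seurat, bcl2fastq and genome build GRCz11 are named in the submitters' processing notes. Their roles, the filter on cells, the clustering and the treatment of doublets are not given in the sources used here, and none were removed here.

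Each deposited mean was divided by the smallest nonzero value of its column, which made all 534660 values whole within 1e-06, so that this value was taken as 1 UMI over the number of cells. Sums were scaled to CPM and compared as log2 ratios with a pseudocount of 1 CPM. Matrix features and table names were matched by symbol, and 6 of 17822 names had no identifier. For the gate, barcodes needed 500 detected genes or more and no more than 10% of UMIs from mitochondrial genes, which kept 7520 of 8702 wildtype and 8464 of 9176 mutant barcodes. Shares have exact (Clopper-Pearson) intervals, and ratios have exact conditional intervals of 2 counts. Intervals and limits for a count of 0 (3 counts, per library) leave out variation between cells and between embryos. With 1 library per group no test was made. The calculations were tested on simulated data.

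Named were the tested members of the arterial, venous, pan-endothelial and Notch lists, the members past 2-fold and the extreme members of the other lists, the 15 genes highest over the other endothelial clusters, the 12 highest and 12 lowest ratios and the 6 largest departures each way at 50 CPM or more, and genes of the study's subject with the reporters. The genes mki67, pcna, aplnrb, cxcr4b, cxcl12a, cxcl12b, klf2b, s1pr1, junba, egr1, dusp5, spry4, pdgfba, mmp14b, col4a1, tubb5, nova2, srgn, gfi1aa and rrm2.1 were named after their values were seen. So were hsp70.3 and rrm2 among the departures and the markers listed at 0. The members and all 26 lists (565 symbols, 42 not in the table) were chosen with earlier results of these data known. Alternatives were other denominators, comparators, scalings, pseudocounts and filters, and the gate in place of the cluster. Single comparator clusters, equal weights and the looser or unthinned gates were added after seeing the data. Python 3.11.15 with numpy 2.4.6, scipy 1.17.1, pandas 2.3.3 and matplotlib 3.10.9 was used. No sequence or coordinate is printed.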

Additional observations from a re-analysis of the deposited data

Results flagged for a closer look

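Of the 12 named genes with the largest departures, 6 in each direction, 8 had a mutant to wildtype ratio with opposite signs in cluster 3 and in the pool of clusters 1, 5 and 6. The difference was not tested in any of them, since each group is 1 library, and the pool held different mixtures of clusters in the 2 libraries.

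The flow-responsive gene klf2a was at 92.9 and 56.3 CPM in cluster 3, and its log2 ratio lay below that of the pool by -1.19. Against clusters 1, 5 and 6 singly the difference was -1.38, -0.53 and -0.36. For tob1b, an antiproliferative gene, the difference was -1.15, and singly -0.70, -0.86 and -0.63. Both stayed below each single cluster.

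For the AP-1 gene fosl2 the difference was -1.14, and singly -0.89, -0.60 and 0.10, so its sign turned against cluster 6. For rnd3a it was -1.13, but singly only -0.25, -0.42 and -0.24. For cryl1 it was 0.773, and singly 0.55, 0.996 and 0.23.

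The globin genes hbbe1.1, hbae3 and hbae1.3 had differences of 0.740, 0.659 and 0.647. Against cluster 6 alone they were -0.33, -0.31 and -0.33. They belong to families of near-identical copies, and the summed erythroid markers of the other endothelial clusters ran from 6726 to 30264 CPM in wildtype and from 8048 to 21059 CPM in mutant cells. The part of blood transcripts in these values was not tested.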

How the results depend on the processing

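The counts of genes depended most on how low values were treated. With a pseudocount of 10 CPM 23 genes were at least 2-fold higher and 27 lower in the mutant library, with a filter at 50 CPM 8 and 13, and with no filter 253 and 274, beside 46 and 65. Of the listed genes 11 passed 2-fold, and 6, 5 and 22 did under those settings and 21 in the gated cells. Setting the median to 0, using UMIs per cell or leaving out mitochondrial, ribosomal, globin and reporter genes kept each count within 1.5 times. The 347 genes above the other endothelial clusters became 60 against the highest single cluster, 166 with a pseudocount of 10 CPM, 97 at 50 CPM and 626 with no filter. The share difference of 0.706 points became -1.89 over all cells and -5.01 in the gate. The 117 genes apart from clusters 1, 5 and 6 became 43, 204 and 99 against each alone, 9 against clusters 0, 1, 2, 5 and 6, and 17 with equal weights. The cause was not tested beyond the fewer genes that a stricter filter leaves. No value of a named gene that passed 2-fold reversed under these settings. In the gated cells ackr3b (-0.74), aplnra (0.94) and hbae1.1.1 (-0.77) lay inside 2-fold. No paired analysis was possible because each group was 1 library, and for the same reason no replicate could be left out. Genes near 10 CPM rest on few UMIs and carry wide intervals, as her15.1 does.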
